A study of Mus musculus with 22 samples.

Results

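The genes described here are 56 mouse genes of lipoprotein and cholesterol handling: apolipoproteins, proteins of particle assembly, lipoprotein receptors, scavenger receptors, efflux proteins, lipases with their partners, enzymes of cholesterol synthesis, storage proteins and regulators of lipid genes. They were chosen by function from 21938 protein-coding genes on chromosomes 1 to 19, X and Y, and all 56 were found in GENCODE M21 by symbol. A peak was assigned to a gene when its summit lay in the gene body or within 50 kb of it. By that rule 41 peaks at 32 distinct sites were assigned to 19 of the 56 genes.

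The data are 1 Oct4 ChIP-seq sample from SMC Oct4-WT/WT mice and 1 from SMC Oct4-KO/KO mice, here called wild-type and knockout, each of aortic tissue from 15 mice pooled. Oct4 (gene Pou5f1) was deleted by tamoxifen through a Myh11-driven CreERT2 that acts in smooth muscle cells (SMC) alone, so other cells in the tissue keep it. All mice were male C57BL/6 apoE-/- animals with an eYFP lineage label and had 18 weeks of Western diet, and the labels describe the tissue as a mixture of cell types. Peak positions contain no cell type markers, so the makeup of the tissue could not be examined. They also do not show whether a gene was deleted, so the deletion could not be checked. Neither list had a peak within 50 kb of Pou5f1 (0 and 0).

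Lipoproteins carry cholesterol and triglyceride through the blood. Apolipoproteins give the particles their structure and are the ligands by which receptors of the LDL receptor family take them up, while lipases on the vessel wall unload triglyceride. Inside cells, sterol level sets the activity of SREBP-2, the factor that turns on cholesterol synthesis, and liver X receptors turn on efflux through ABCA1 and ABCG1. In atherosclerosis, macrophages and SMC of the vessel wall take up modified lipoprotein through scavenger receptors and become foam cells. Mice without apoE, as in both groups here, clear remnant particles poorly and develop lesions.

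Sequences under some of the peaks are shown first because the sites fell into distinct kinds. The reference sequence (GRCm38.p6, RefSeq, plus strand) was read for each peak interval. Capitals mark words of 12 bases that recurred among other peaks of the same lists and were at least 10 times rarer in windows 1000 bp to either side, as explained with the counts further on. The first set lies within 10 kb of a member's transcript start, with a peak in both genotypes at Mylip and in the knockout alone at Pltp.
Mylip: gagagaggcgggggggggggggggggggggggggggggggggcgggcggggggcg
Pltp: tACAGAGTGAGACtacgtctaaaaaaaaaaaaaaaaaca

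The second set lies at Apoe, where the 2 lists had different sites. They are wild-type peaks in a coding exon of Apoe, just upstream of Apoe and in a coding exon of its neighbor Tomm40.
Apoe coding exon: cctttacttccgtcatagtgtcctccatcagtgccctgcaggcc
Apoe upstream: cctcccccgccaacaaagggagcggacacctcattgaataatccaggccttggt
Tomm40 coding exon: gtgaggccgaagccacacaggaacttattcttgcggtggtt

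A further sequence was chosen after the values were seen, as a peak of the knockout list alone in the body of a receptor gene.
Lrp8: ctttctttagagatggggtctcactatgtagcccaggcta

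A wild-type peak was within reach of 13 of the 56 genes, or 23.2% (exact 95% binomial interval 13.0 to 36.4), and the same was true of 18.8% of all protein-coding genes. A knockout peak was within reach of 18 of the 56 genes, or 32.1% (20.3 to 46.0), beside 30.5% of all protein-coding genes. Both shares were close to those of genes at large, and the interval of each held the background value. There was 1 sample per genotype, so no test between genotypes was possible, and all intervals given cover counting error only.

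Peaks of both lists were within reach of 12 of the 56 genes, namely Apoe, Apoc1, Apoc2, Apobec1, Lrp1b, Mylip, Lipc, Gpihbp1, Fdft1, Srebf2, Scap and Pparg. That is 21.4%, beside 16.4% of all genes. Hmgcs1 was the 1 gene with a peak in the wild-type list alone, and Lrp8, Sorl1, Abca1, Pltp, Angptl4 and Npc1 were the 6 with a peak in the knockout list alone. These are 1.79% of the 56 genes (exact 95% binomial interval 0.0452 to 9.55), beside 2.34% of all genes, and 10.7% (4.03 to 21.9), beside 14.1%. The other 37 genes had no peak within 50 kb in either list.

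**Figure D1:**
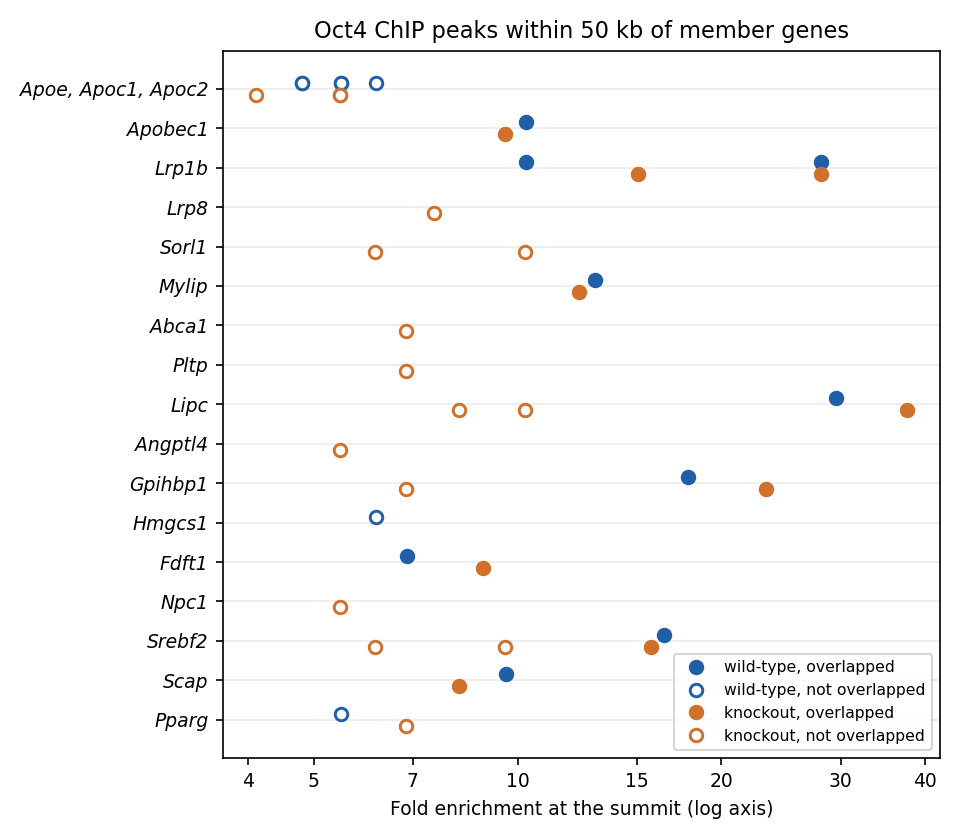
Fold enrichment at the summit (log axis) of every peak within 50 kb of a member gene, 1 point per peak, with wild-type and knockout in separate colors and filled points for peaks that overlap a peak of the other list. The filled points, at Lipc, Lrp1b, Gpihbp1, Srebf2, Mylip and others, reach 29.5 (wild-type) and 37.6 (knockout), while no open point is above 10.3.

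The plot of fold enrichment by gene shows 16 wild-type and 25 knockout peaks, where the peaks that Apoe, Apoc1 and Apoc2 share are drawn once. Fold enrichment is the authors' ratio of the fragments piled up at the summit, plus 1, to an expected number, plus 1. That expected number was the same at every peak of a list (wild-type 0.458 and knockout 0.462 fragments), so the folds hold no correction for local background. Its median was 8.23 over the wild-type peaks at these genes (quartiles 5.49 and 13.9) and 7.54 over all wild-type peaks (6.17 and 9.60). For the knockout the medians were 8.21 at these genes (6.16 and 10.3) and 7.52 over all peaks (6.84 and 10.3).

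At a reach of 50 kb, and with every peak counted, peak density around these genes was also near that of genes in general. Their bodies with 50 kb to each side cover 9.43 Mb, and held 1.70 wild-type peaks per Mb (exact 95% Poisson interval 0.970 to 2.76) and 2.65 knockout peaks per Mb (1.72 to 3.91). The windows of all protein-coding genes held 1.93 and 2.90 per Mb, and whole chromosomes 1.88 and 2.65. At a reach of 100 kb the members' densities were 2.91 (2.10 to 3.93) and 4.85 (3.78 to 6.13) per Mb, above the 2.04 and 2.95 of all gene windows of that reach. Without Hmgcs1 they were 1.62 (1.03 to 2.43) and 3.10 (2.25 to 4.16), so the rise at 100 kb lay with that 1 gene, where the peaks were clustered.

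Longer genes have more room for a summit, so the share was also set against genes of like length. The median length was 24.7 kb among the 56 genes and 17.4 kb among all protein-coding genes. Among members under 20 kb, 5 of 21 had a wild-type peak and 6 of 21 a knockout peak, shares of 23.8% and 28.6%, beside 14.8% and 24.7% of all genes of that length. In each list Apoe, Apoc1 and Apoc2 are among these and count the same peaks, so these shares rest in part on 1 place. Among members of 60 kb or more, 3 of 16 had a wild-type peak and 6 of 16 a knockout peak, or 18.8% and 37.5%, beside 28.1% and 43.5%. Among the 19 members of 20 to 60 kb, 5 had a wild-type and 6 a knockout peak, or 26.3% and 31.6%, beside 19.8% and 32.8%. The members' intervals held the background in all 3 length classes and both lists.

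**Figure D2:**
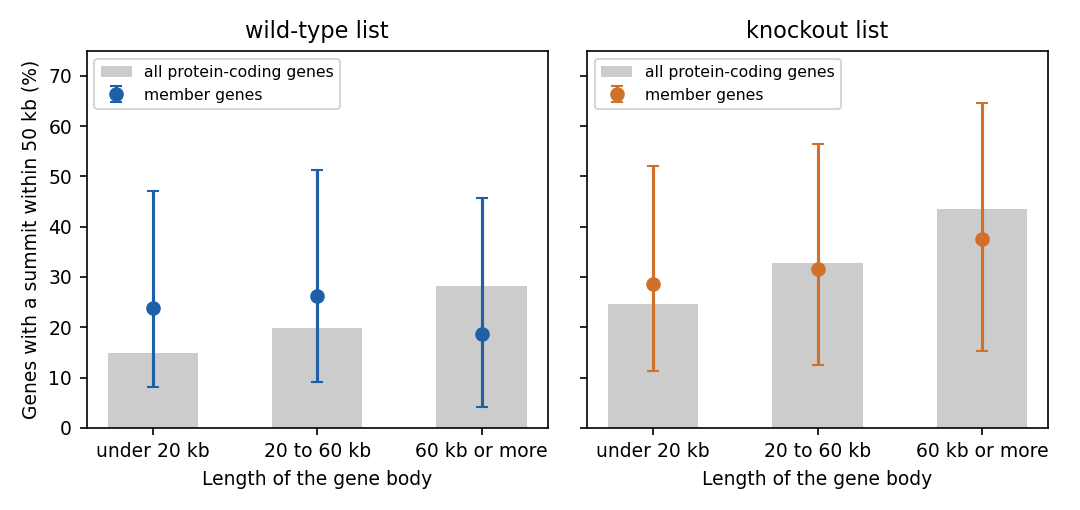
Percent of genes with a summit within 50 kb, by length of the gene body, for the wild-type list (left) and the knockout list (right). Bars are all protein-coding genes and points are the 56 member genes with exact 95% binomial intervals; every interval spans its bar's top.

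The 2 lists shared 9 sites at these genes. Of the 16 wild-type peaks, 9 were overlapped by a knockout peak at 1 bp or more, which is 56.2% (exact 95% binomial interval 29.9 to 80.2), beside 66.7% of all wild-type peaks on chromosomes. Of the 25 knockout peaks, 9 were overlapped, which is 36.0% (18.0 to 57.5), beside 47.6% of all knockout peaks. Both intervals held the share over all peaks. The wild-type share turned on the 5 peaks at Apoe, since without that region it was 81.8% (9 of 11, 48.2 to 97.7), beside 66.8%. It also fell when peaks with the sequence words, runs or telomere repeats described further on were left out. Without them 0 of 6 wild-type peaks (0 to 45.9%) and 0 of 5 knockout peaks (0 to 52.2%) were overlapped, beside 57.2% and 46.0% of all such peaks. All 9 shared sites held such sequence, so leaving it out left 0 overlapped in each list. Of the 6 wild-type peaks, 5 were those at Apoe and 1 was at Hmgcs1, so they are not 6 separate places. The first of these intervals did not hold its background and the second did, but nothing is read from either.

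The number of fragments at a summit was recovered from the fold enrichment, which moves in steps of 1 fragment. The 9 shared sites were all higher than the other member peaks in the wild-type, while in the knockout the ranges overlapped. Their wild-type summits held 9 to 42 fragments (median 18) and their knockout summits 11 to 54 (median 21). The 7 wild-type peaks that were not overlapped held 6 to 8 fragments, and the 16 knockout peaks that were not overlapped held 5 to 14. Overlapped peaks were also the higher ones over the whole lists. Their median fold was 8.91, beside 6.17 for peaks not overlapped, in the wild-type, and 10.3, beside 6.84, in the knockout. The smallest pileup in either list was 5 fragments, and a site absent from a list has no value there, so an absence is no measurement of 0.

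**Figure D3:**
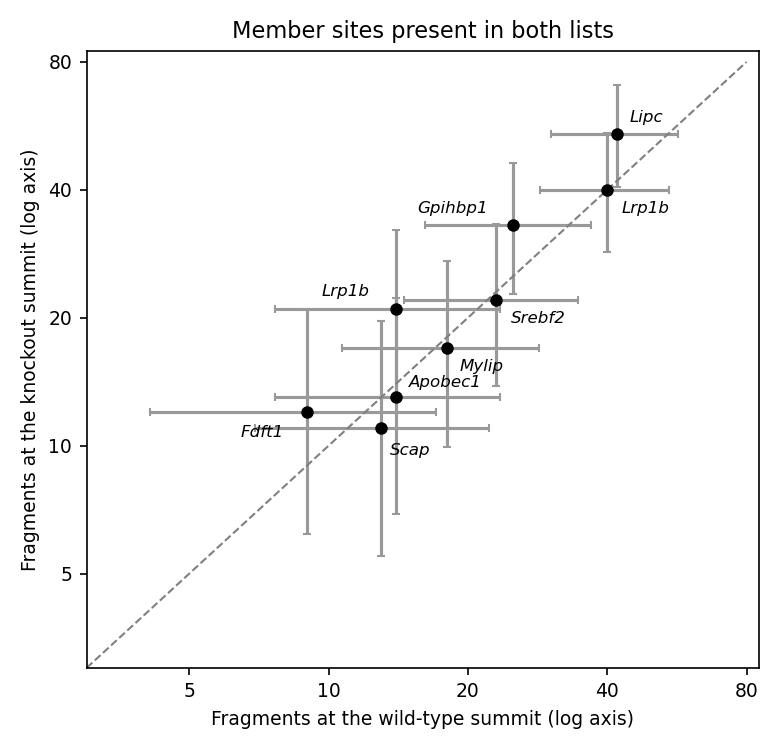
Fragments at the knockout summit against fragments at the wild-type summit (both log axes) for the 9 member sites in both lists, with exact 95% Poisson intervals and a dashed line of equality. All 9 intervals reach the line, from Fdft1 (9 and 12 fragments) to Lipc (42 and 54).

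At the 9 shared sites the knockout and wild-type summits were 0 to 5 bp apart and their heights were alike within counting error. Scaled to like depth, the ratio of knockout to wild-type fragments ran from 0.840 at Scap to 1.49 at the second Lrp1b site, and all 9 exact intervals held 1. Over all 3384 overlapping pairs in the 2 lists the median ratio was 1.11 (quartiles 0.910 and 1.35). These ratios compare 2 libraries, not the genotypes.

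Among the apolipoproteins, 3 of 9 had a peak, and all 3 through the same sites. Apoe, Apoc1 and Apoc2 lie side by side on chromosome 7 and share 5 wild-type and 3 knockout peaks. Apoe encodes the remnant ligand that these mice lack, Apoc1 an exchangeable apolipoprotein, and Apoc2 the cofactor of lipoprotein lipase. All 8 summits lay within 5 kb of Apoe, in a span of 6.71 kb at chr7:19696159-19702868, and none of the 8 overlapped a peak of the other list.

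The wild-type peaks at Apoe were low and close to its start. A peak at chr7:19697069-19697112 in a coding exon had 7 fragments at its summit and a fold of 5.49. A peak of 197 bp at chr7:19698887-19699083, with its summit in an intron 220 bp past the start, had 6 fragments and a fold of 4.80. A peak at chr7:19699225-19699278, whose summit was 66 bp upstream of the start, had 8 fragments and a fold of 6.17, the highest of the 8. Further upstream, in Tomm40, which encodes a channel protein of the outer mitochondrial membrane, a peak in a UTR had 6 fragments and a fold of 4.80 (chr7:19701332-19701407) and a peak in a coding exon had 7 and a fold of 5.49 (chr7:19701728-19701768).

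The knockout peaks lay to either side of these. A peak in the 3′ part of Apoe (chr7:19696159-19696197, UTR) had 7 fragments and a fold of 5.47. A peak in an intron of Tomm40 (chr7:19702177-19702263) also had 7 fragments and a fold of 5.47, and a peak at a coding exon of Tomm40 (chr7:19702806-19702868) had 5 and a fold of 4.10. Each of the 8 summits was 434 to 2928 bp from the closest summit of the other list, and the counts of 5 to 8 fragments overlapped between the genotypes.

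**Figure D4:**
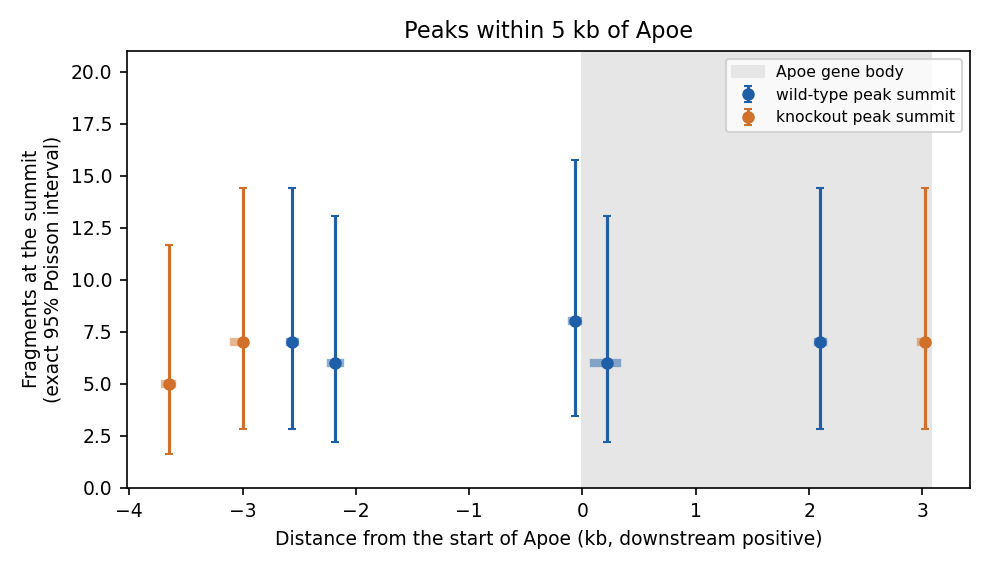
Fragments at the summit of each peak within 5 kb of Apoe, with exact 95% Poisson intervals, by distance from the Apoe start in kb; thick horizontal bars are peak widths and the gray band is the Apoe gene body. The 5 wild-type peaks lie between -2.56 and 2.10 kb and the 3 knockout peaks lie outside them, all at 5 to 8 fragments.

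The map of peaks around Apoe shows a cluster of peaks with 5 to 8 fragments. How many genes have as many peaks was counted after the values at Apoe were seen, with limits taken from Apoe itself, so the counts are a description. Of 21938 genes, 2777 had any peak within 5 kb, and 53 had 8 or more over both lists. Only 7 of the 53, Apoe among them, had no peak overlapped by the other list (the rest of the 7 are A530032D15Rik, C130026I21Rik, Sp140, Trpm8, Gm21083 and 4930467E23Rik, named because they share this count). Apoe is the shortest of the 7 at 3.08 kb. At Trpm8 all 12 peaks, and at Apoe 7 of 8, lay in sequence with 1 copy in the genome and held none of the words, runs or telomere repeats described further on, while at the other 5 no peak did. Both genotypes carry the apoE-/- alleles, whose structure is not given in the sources used here, and any part of these alleles in the reads at this place was not tested.

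The other 6 apolipoprotein genes had no peak in reach. Apob, the structural protein of VLDL and LDL, was just outside, with 1 shared site at 51.4 kb in both lists (wild-type fold 8.91, knockout fold 6.84). Apoa1, Apoa4, Apoa5 and Apoc3, the HDL and triglyceride gene cluster, were 234 to 274 kb from the closest knockout summit and 423 to 464 kb from the closest wild-type summit. Apoa2, a further HDL protein, was 97.0 kb from a knockout and 133 kb from a wild-type summit.

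Of the 2 assembly genes, Apobec1 had a peak and Mttp had none. Apobec1 encodes the enzyme that edits Apob mRNA to its short intestinal form. Its peak in an intron (chr6:122590628-122590671, 9.47 kb from the closest transcript start) had 14 wild-type and 13 knockout fragments, with folds of 10.3 and 9.58 and a ratio of 0.922 (0.399 to 2.11). Mttp, which loads lipid onto apoB, was 519 kb from the closest knockout summit and 2536 kb from the closest wild-type summit.

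In the receptor group, 2 of 8 genes had a wild-type peak and 4 of 8 a knockout peak. Lrp1b, a very large member of the LDL receptor family at 2058 kb, had 2 intronic sites in both lists. The first (chr2:41896203-41896268) had 40 fragments in each genotype and folds of 28.1 and 28.0, and its whole interval is an array of 11 telomere units. The second (chr2:42189637-42189684), which holds a run of T, had 14 wild-type and 21 knockout fragments, with folds of 10.3 and 15.0 and a ratio of 1.49 (0.722 to 3.16).

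Mylip encodes the ubiquitin ligase (IDOL) that sends receptors of the LDL receptor family to the lysosome. Its intronic peak (chr13:45398607-45398661, 7.71 kb from a transcript start) had 18 wild-type and 17 knockout fragments, with folds of 13.0 and 12.3. The interval holds the run of G shown above, 33 bases long, and the heights did not differ beyond counting error (ratio 0.937, 0.454 to 1.93).

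Lrp8 and Sorl1 had peaks in the knockout list alone, all of them intronic. Lrp8 is apoE receptor 2, and its peak (chr4:107863156-107863195) had 10 fragments and a fold of 7.52. Sorl1, a sorting receptor that binds apoE and the amyloid precursor, had 2 peaks, at chr9:42030165-42030214 with 14 fragments (fold 10.3) and at chr9:42075874-42075912 with 8 (fold 6.16). The closest wild-type summits were 800 kb from Lrp8 and 2732 kb from Sorl1.

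Vldlr, Lrp1, Lrp2 and Sort1, which encode the VLDL receptor, a remnant receptor, megalin and sortilin, had no peak in reach. Lrp2 and Sort1 were just outside in the knockout list, at 50.6 and 53.5 kb. Lrp1 was 79.5 kb from 1 shared site. Vldlr was 109 kb from a knockout and 278 kb from a wild-type summit.

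None of the 4 scavenger receptor genes had a peak in reach (0 wild-type, 0 knockout). Cd36, which binds oxidized LDL and fatty acids, was 60.5 kb from a knockout summit and 313 kb from a wild-type summit. Scarb1, the HDL receptor, and Olr1, the oxidized LDL receptor LOX-1, were 131 and 113 kb from a knockout summit. Msr1, scavenger receptor A, was 426 kb from the closest summit of either list.

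Of 6 efflux and HDL remodeling genes, 2 had a knockout peak and 0 a wild-type peak. Abca1, which moves cholesterol onto apoA-I, had an intronic knockout peak (chr4:53113617-53113655) 46.3 kb from its start with 9 fragments and a fold of 6.84. Pltp, the phospholipid transfer protein of HDL, had an intronic knockout peak (chr2:164848516-164848554) 9.01 kb from a start, also with 9 fragments and a fold of 6.84. The closest wild-type summits were 349 kb from Abca1 and 535 kb from Pltp.

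Lcat, which esterifies cholesterol on HDL, was the gene nearest to the limit from outside, with a shared site at 50.4 kb whose wild-type fold was 19.9 and knockout fold 26.7. Nearest from inside was Npc1, the lysosomal cholesterol exporter, whose knockout peak in an intron of the neighboring gene Riok3 lay 49.6 kb away with 7 fragments and a fold of 5.47. The closest wild-type summit was 105 kb from Npc1. The transporters Abcg1, Abcg5 and Abcg8 were 196 to 213 kb from the closest knockout summit and 257 to 452 kb from the closest wild-type summit.

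Among 7 lipase genes, Lipc and Gpihbp1 had peaks in both lists and Angptl4 in the knockout list alone. Lipc encodes hepatic lipase, which remodels remnants and HDL, and held the highest member peak of either list. That intronic site (chr9:70806173-70806238) had 42 wild-type and 54 knockout fragments, folds of 29.5 and 37.6, and lay above 97.2% and 98.8% of the peaks of the 2 lists. The ratio was 1.28 with an interval of 0.837 to 1.96, so the heights were not distinguishable at this depth.

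Lipc had 2 more intronic peaks in the knockout list alone, at chr9:70834399-70834444 with 14 fragments (fold 10.3) and at chr9:70836936-70836975 with 11 (fold 8.21). Both were lower than the shared site, and the closest wild-type summits were 28.2 and 30.8 kb away.

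Gpihbp1 anchors lipoprotein lipase on capillary endothelium. Its shared site (chr15:75603884-75603942), 4.43 kb past the gene and 7.26 kb from a transcript start, had 25 wild-type and 33 knockout fragments, with folds of 17.8 and 23.3 and a ratio of 1.31 (0.756 to 2.30). A second knockout peak of 9 fragments (fold 6.84) lay 20.5 kb away in an intron of Zfp41.

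Angptl4 encodes an inhibitor of lipoprotein lipase, and its knockout peak (chr17:33803215-33803253) lay 21.4 kb upstream with 7 fragments (fold 5.47). The closest wild-type summit was 99.1 kb from Angptl4. Lpl, lipoprotein lipase itself, was 77.1 kb from a knockout and 544 kb from a wild-type summit. Lipa, the lysosomal acid lipase, Lipg, endothelial lipase, and Lmf1, a lipase maturation factor, were 308 to 791 kb from the closest knockout summit.

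In the synthesis group, 2 of 3 genes had a wild-type peak and 1 of 3 a knockout peak. Hmgcs1 makes HMG-CoA, the step before the rate-limiting reductase. Its wild-type peak (chr13:119659456-119659496) lay 30.9 kb upstream with 8 fragments and a fold of 6.17, and the closest knockout summit was 87.0 kb from the gene. The 1 Mb bin around this peak held 21 wild-type peaks, the most of any bin with a member peak, and its sequence had 3 copies in the genome.

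Fdft1, squalene synthase, had a shared site 21.5 kb past the gene (chr14:63123660-63123700) on an exon of Ctsb that belongs to a non-coding transcript (Ctsb encodes cathepsin B). It had 9 wild-type and 12 knockout fragments, with folds of 6.86 and 8.89 and a ratio of 1.32 (0.512 to 3.56). Sqle, squalene epoxidase, had no peak in reach (206 kb from a knockout and 244 kb from a wild-type summit).

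In the storage and transport group, Npc1 was the 1 of 6 genes with a peak, described above. Npc2, its partner in lysosomal export, was 55.7 kb from a wild-type and 62.7 kb from a knockout summit. Soat1 and Soat2, which esterify cholesterol, Npc1l1, which takes up cholesterol in the intestine, and Plin2, a lipid droplet coat protein, were 162 to 839 kb from the closest summit of either list.

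Of 11 regulators, 3 had a peak, and all 3 in both lists. Srebf2 encodes SREBP-2, and its shared site 13.3 kb past the gene (chr15:82218693-82218747) had 23 wild-type and 22 knockout fragments, with folds of 16.5 and 15.7 and a ratio of 0.949 (0.505 to 1.78). In the knockout list alone Srebf2 had an intronic peak (chr15:82168445-82168486) with 8 fragments (fold 6.16) and a peak 33.8 kb upstream in Mei1 with 13 (fold 9.58). The sequence of the latter had 91 copies in the genome.

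Scap escorts SREBP-2 out of the endoplasmic reticulum. Its shared site (chr9:110291832-110291878) lay 41.4 kb upstream in an intron of the non-coding gene Gm42775 with 13 wild-type and 11 knockout fragments and folds of 9.60 and 8.21, and the ratio of 0.840 had an interval of 0.341 to 2.03. Pparg, the nuclear receptor of fat cells and macrophage lipid uptake, had a different site in each list. Its wild-type peak lay 42.3 kb past the gene with 7 fragments (fold 5.49), and its knockout peak 4.48 kb past the gene with 9 (fold 6.84), 37.8 kb apart.

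The liver X receptors Nr1h3 and Nr1h2 were 96.1 and 102 kb from the closest knockout summit. Trib1, a pseudokinase that regulates hepatic lipid synthesis, was 72.8 kb from 1 shared site with a wild-type fold of 5.49 and a knockout fold of 8.89. Srebf1, Ppara, Insig1 and Insig2 were 119 to 1025 kb from a shared site, and Rxra, the partner of these nuclear receptors, was 380 kb from a knockout and 436 kb from a wild-type summit.

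**Figure D5:**
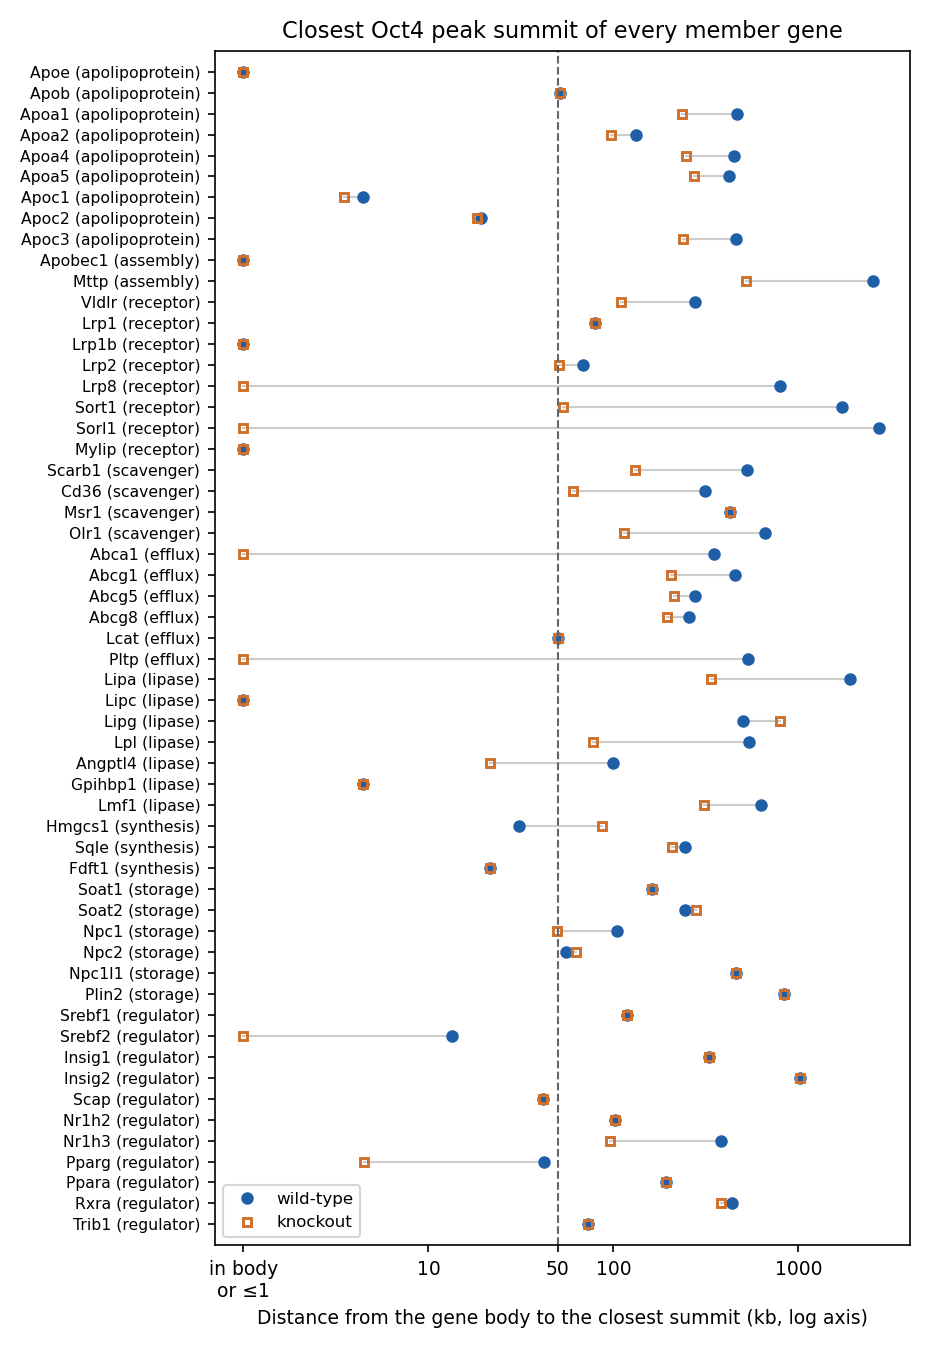
Distance in kb (log axis) from the body of each of the 56 member genes to the closest wild-type summit (circles) and knockout summit (squares), ordered by role; summits in the body or within 1 kb are drawn at the left edge and the dashed line is the limit of 50 kb. For 12 of the 37 genes beyond the limit in both lists the closest peaks of the lists are the same site (32.4%, beside 39.96% of all protein-coding genes without a peak in reach).

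As the plot of closest summits shows, 6 of the 37 genes without an assigned peak had a wild-type summit within 100 kb and 11 a knockout summit. These are 16.2% (exact 95% binomial interval 6.19 to 32.01) and 29.7% (15.9 to 47.0), beside 12.8% and 21.6% of the 14736 protein-coding genes that had no peak in reach in either list, and both intervals held those shares. The knockout summit was closer by over 1 kb at 21 of the 37, or 56.8% (39.5 to 72.9), beside 48.4% of those genes. The wild-type summit was closer at 3, or 8.11% (1.70 to 21.9), beside 11.1%. Both intervals held the share over all such genes, and the knockout list is the longer, with 7018 peaks on chromosomes beside 4977.

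By position, the peaks at members were mostly away from promoters. No share over all peaks of the lists is given beside these positions, so they describe the member peaks only. Of the 16 wild-type peaks 7 lay in the body of a member and 2 within 1 kb of a member's 5′ end, both at Apoe. Of the 25 knockout peaks 14 lay in a member's body and 0 within 1 kb of a member's 5′ end, while 3 were within 1 kb of a transcript start of a gene that is no member (at Tomm40 and Riok3). Introns of any gene held 8 of the 16 and 18 of the 25. For 7 wild-type and 12 knockout peaks the closest protein-coding transcript start belonged to a gene that is no member, such as Adam10, Ctsb, Elp6 or Tomm40.

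Peaks of 1 list alone were split between the genotypes. A wild-type peak that no knockout peak overlapped was in reach of 5 of the 56 genes (8.93%, 2.96 to 19.6), beside 4.24% of all genes, and 3 of these 5 (Apoe, Apoc1 and Apoc2) count the same peaks. A knockout peak that no wild-type peak overlapped was in reach of 13 of the 56 (23.2%, 13.0 to 36.4), beside 18.9% of all genes. Both intervals held the background.

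Many member sites shared short sequence words with other peaks of the lists. Words of 12 bases were counted within 100 bp of each summit, in peaks out of reach of the 56 genes, and 243 words were in at least 0.5% of those windows and at least 10 times rarer in flanking windows of the same length. The search was devised after the peaks were seen, so its counts are a description and were not tested. Only exact matches were counted, so peaks without a word can still hold near copies of one. A word was in 7 of the 16 wild-type and 17 of the 25 knockout member windows (43.8%, exact 95% binomial interval 19.8 to 70.1, and 68.0%, 46.5 to 85.1), beside 26.1% and 35.5% of all wild-type and knockout peaks and 3.08% of 23990 flanking windows. With the limit at 1% of windows, 121 words remained and were in 5 of the 16 and 12 of the 25, or 31.2% (11.0 to 58.7) and 48.0% (27.8 to 68.7), beside 21.7% and 28.7% of all peaks. At that limit both intervals held the share over all peaks, while at 0.5% the knockout interval did not.

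All 9 shared member sites held such a word, a single-base run of 12 or more, or 4 or more telomere units. Runs were at Mylip, Scap and the second Lrp1b site, and the telomere array at the first. Over all wild-type peaks that a knockout peak overlapped the share was 46.7%. Of the 7 wild-type member peaks that were not overlapped 1 held any of these, beside 19.9% of all such wild-type peaks, and of the 16 such knockout peaks 11 did, beside 42.9%. Over the whole lists, 89.5% of wild-type peaks with a word were overlapped by a knockout peak, beside 58.7% of those without, and for knockout peaks the shares were 46.8% and 48.0%.

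Most member peaks lay in sequence that the reference holds once. By the median over 31-base words around the summit, 14 of 16 wild-type and 23 of 25 knockout peaks were of 1 copy, beside 50.8% and 63.1% of all peaks. Over the whole lists, 80.2% of wild-type and 85.9% of knockout peaks with a recurrent word were of 1 copy. Of those without a word, 40.3% and 50.6% were, so the word share and the 1-copy share are linked. The member peaks of more than 1 copy were the second Lrp1b site (both lists), Hmgcs1 and the Srebf2 peak in Mei1. Whether fragments from other copies of a repeat, or from DNA of another species, entered these pileups was not tested, so the folds and overlaps at sites with a word, a run or a telomere repeat are given without that check.

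The octamer ATGCAAAT, the DNA sequence that Oct4 and its relatives are known to bind, was searched on both strands within 100 bp of each summit. It was in 0 of the 16 wild-type and 0 of the 25 knockout member windows, beside 2.05% of all wild-type and 2.59% of all knockout peaks. With 1 mismatch allowed it was in 0 and 2 member windows, at the second Gpihbp1 knockout peak and the lowest Lipc knockout peak, beside 20.9% and 22.5% of all peaks. These letters being absent says only that they are not in these windows.

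Other genes of the same pathways, 50 in 5 lists, were assigned peaks by the same rule. A wild-type peak was in reach of 6 of the 50, or 12% (exact 95% binomial interval 4.53 to 24.3), and a knockout peak of 15, or 30.0% (17.9 to 44.6), beside the 18.8% and 30.5% of all genes given above. Sterol synthesis enzymes beyond the members had 3 and 4 of 16, among them Cyp51 and Pmvk in both lists and Msmo1 in the knockout alone. At Cyp51 the 3 wild-type and 4 knockout peaks lay in an intron of Akap9 in sequence of 6 to 15 copies.

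Cyp27a1, the mitochondrial enzyme that makes 27-hydroxycholesterol, had 2 intronic sites in both lists, with folds of 22.6 and 28.7 at the first and 11.0 and 13.7 at the second. Osbp, an oxysterol-binding protein, and Lrp5, a Wnt coreceptor of the LDL receptor family, each had 1 shared site, and at Lrp5 the folds were 13.7 and 19.2. A peak in the knockout list alone was in reach of 9 of the 50 genes, or 18% (8.58 to 31.4), beside 14.1% of all genes. By list these were 4 of 8 scavenger receptors (Cd68, Scarb2, Stab1 and Stab2), 2 of 10 lipid droplet genes (Lipe and Plin1), and 1 gene in each of the other lists, Msmo1 and Cyp46a1 among them. With 8 genes in a list and 0 of 4 scavenger receptors among the members, nothing is read from the difference between lists.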

How the data were processed

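Oct4 ChIP-seq peak lists of 2 pooled aortic samples were analysed. The authors mapped reads with Bowtie (GRCm38.p6), discarded duplicates (SAMtools) and kept MACS2 peaks with a q value below 0.05. In the deposited lists the score is the -log10 q times 10, without decimals, the fold enrichment is a ratio at the summit, the -log10 p and -log10 q are as the authors' caller gave them, and the offset is the summit position in bp. The wild-type list and the list named wild-type over knockout were identical in all 5455 entries, so 1 was used. The names do not tell which call it holds. Its expected pileup was the same at every peak, also at sites with a knockout peak, so knockout fragments at a site did not enter its folds. The control of each call and the read totals are not given in the sources used here. The step between fold values gave expected pileups of 0.458 (wild-type) and 0.462 (knockout) fragments, by which the depth was scaled.

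The members and lists were chosen with earlier results of these data known. Every member with a summit in reach was named; the rule asked for full values of summits in a body or within 10 kb of a transcript start, the 5 highest peaks of each list, members with a peak in 1 list alone, and Apoe, Apob and Trib1, and fragments and folds are given for every peak at a member, with some coordinates left out. Genes came from GENCODE M21 and sequence from the RefSeq copy of GRCm38.p6, whose chromosome lengths matched. Only counts, shares and exact 95% intervals were computed, as 1 sample per genotype allows no test. Alternatives were the gene body alone, reaches of 10 and 100 kb, a q value under 0.01, the closest transcript start, sequence of 1 copy and 2 other overlap rules. Functions were tested on simulated data (matplotlib 3.10.9, numba 0.67.0, pandas 2.3.3, scipy 1.17.1, numpy 2.4.6 and Python 3.11.15). Some genes and peak sequences are not reported here.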

Additional observations from a re-analysis of the deposited data

How the results depend on the processing

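No paired analysis was possible because each genotype had 1 sample. Counts moved with the reach. In the gene body alone, 5 genes and 7 peaks remained in the wild-type list and 10 genes and 14 peaks in the knockout list. Within 10 kb the wild-type count was 7 genes. Within 100 kb there were 20 genes, 42 peaks and 2.91 peaks per Mb in the wild-type and 30 genes, 70 peaks and 4.85 per Mb in the knockout, of which 58.6% were overlapped. By the closest transcript start 8 genes had a wild-type peak. In the body alone and within 10 kb, the members' knockout shares were 17.9% and 23.2%, beside 9.21% and 14.2% of all genes, inside their intervals (8.91 to 30.4 and 13.0 to 36.4). The 58.6% (46.2 to 70.2) within 100 kb was beside 47.6% of all knockout peaks. The next settings were added after seeing the data. Without Hmgcs1 the densities within 100 kb were 1.62 and 3.10 per Mb, and 36.4% (22.4 to 52.2) of the knockout peaks were overlapped. Without the Apoe region, 81.8% of wild-type peaks at members were overlapped. Without peaks that hold a word, a run or a telomere repeat, 4 genes, 6 peaks and 0.636 per Mb were left in the wild-type and 6 genes, 5 peaks and 0.530 per Mb in the knockout, and 0% were overlapped in either list. All gene windows then held 1.08 and 1.39 per Mb. The wild-type interval (0.234 to 1.39) held its background, while the knockout interval (0.172 to 1.24) lay below its own. The shares of genes with a peak were 7.14% and 10.7%, beside 6.23% and 10.1% of all genes. Of those 6 wild-type peaks, 5 lie at Apoe and 1 at Hmgcs1. Other settings left the counts within 1.5 times, and medians, shares and densities within their intervals. The lists hold no value for a site that was not called, so a site missing from 1 list cannot be set against the other by its height.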

Other observations

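The commonest of the recurrent words was CTGGGATTACAG, which lies in the shared Srebf2 peak and in 1 of the Lipc knockout peaks. It was in 5.12% of summit windows away from the 56 genes and in 0.201% of flanking windows, 25.5 times as often. The word 1 substitution away from it that is commonest in the flanks is CTGGGATTAAAG (C10A, counted from 1 at the 5′ end), which was in 4.38% of summit windows and 1.35% of flanking windows, 3.24 times as often, and which lies in the Srebf2 knockout peak in Mei1. As background, both words belong to short interspersed repeats that descend from 7SL RNA, of which B1 is the rodent family and Alu the primate family, and the form that is commoner in the mouse flanks (CTGGGATTAAAG) is that of B1, while the form that is commoner at summits (CTGGGATTACAG) is that of Alu. Whether reads of human DNA are part of either library was not tested with the peak lists, and fold enrichments and overlaps at sites with these words, shared sites included, depend on where those reads came from.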
